A study of Mus musculus with 8 samples.

Results

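The S and G2/M cell cycle genes examined here are 47 genes fixed by name, 16 that act in DNA replication (S phase) and 31 that act in chromosome segregation and division (G2 and mitosis), out of 54232 gene IDs with counts. They were followed in NK cells and CD8+ T cells sorted from spleens of *Tyk2*-/- mice, which lack the Janus kinase TYK2, a kinase that transmits type I interferon and IL-12 signals. All mice were 8 to 12 weeks old, left untreated (homeostatic) and labelled C57BL/6, which the study's methods narrow to the C57BL/6N substrain, so both groups share the knockout and differ in cell type. The study's methods give the allele as Tyk2tm1Biat, also in a form bred with a CMV-cre transgene, which acts in all tissues, and the labels do not tell which form each library came from. The NK and CD8+ T samples also share no replicate number. A difference between sets of replicates, or in the form of the allele, thus cannot be told apart from one of cell type. Each library was made from sorted cells of 3 pooled spleens, and there were 3 libraries of NK cells and 3 of CD8+ T cells. The spread between libraries therefore joins differences between pools with those of amplifying and sequencing each library, which cannot be told apart here. *WT* CD8+ T cells were not analysed here, because 3 sets of counts carry that name against 2 samples, so the comparison of *Tyk2*-/- with *WT* CD8+ T cells was not made, and nothing below is an effect of the knockout.

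Dividing cells duplicate their DNA and then separate it. MCM proteins are loaded on replication origins and unwind DNA together with CDC45 and the GINS complex, ribonucleotide reductase and thymidylate synthase supply nucleotides, and PCNA holds the polymerases on DNA. CDK1 with cyclins A and B then drives entry into mitosis, Aurora and Polo kinases build and correct the spindle, and the anaphase-promoting complex (APC/C) ends mitosis by marking cyclins for destruction. In quiescent cells these genes are held down by the DREAM complex, which reaches S genes through E2F sites and G2/M genes through the CHR element (cell cycle genes homology region), often beside CCAAT boxes bound by NF-Y. Naive CD8+ T cells rest in G0 until they meet antigen, whereas a part of mature NK cells and of memory-like T cells turns over in the unchallenged spleen.

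The promoters of 3 members whose level differed between the cell types are shown with those of 2 licensing genes, so that the elements of both phases can be read. Each is the 250 bases before the RefSeq transcript start on GRCm38.p6, written 5′ to 3′ on the gene's strand, and capitals mark a CHR element (TTTGAA or a variant of it), a CCAAT box or an E2F site (TTTGGCGC, TTTCGCGC, TTTGGCGG or TTTCCCGC) on either strand.
Cdk1 (chr10:69352913-69353162, minus strand): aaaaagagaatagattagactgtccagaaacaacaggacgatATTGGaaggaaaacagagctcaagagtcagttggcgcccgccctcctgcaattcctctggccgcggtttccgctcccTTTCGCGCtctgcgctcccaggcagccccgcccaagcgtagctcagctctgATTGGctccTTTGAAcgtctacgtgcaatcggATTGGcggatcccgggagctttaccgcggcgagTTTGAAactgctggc
Mki67 (chr7:135716380-135716629, minus strand): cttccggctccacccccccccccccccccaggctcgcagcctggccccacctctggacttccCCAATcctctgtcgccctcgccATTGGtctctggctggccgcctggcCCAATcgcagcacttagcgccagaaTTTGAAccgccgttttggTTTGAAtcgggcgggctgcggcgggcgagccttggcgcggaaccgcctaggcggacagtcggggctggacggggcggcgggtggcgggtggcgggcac
Kif23 (chr9:61946800-61947049, minus strand): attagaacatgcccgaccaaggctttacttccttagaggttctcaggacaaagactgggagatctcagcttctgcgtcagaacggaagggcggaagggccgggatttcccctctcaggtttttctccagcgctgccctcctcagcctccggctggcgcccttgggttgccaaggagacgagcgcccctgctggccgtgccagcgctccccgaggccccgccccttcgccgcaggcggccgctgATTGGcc
Mcm6 (chr1:128359706-128359955, minus strand): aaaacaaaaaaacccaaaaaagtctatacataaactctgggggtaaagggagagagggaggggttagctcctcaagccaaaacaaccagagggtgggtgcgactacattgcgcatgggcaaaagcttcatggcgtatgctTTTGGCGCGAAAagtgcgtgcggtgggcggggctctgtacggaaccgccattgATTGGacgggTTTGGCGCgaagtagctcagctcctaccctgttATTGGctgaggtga
Mcm5 (chr8:75109259-75109508, plus strand): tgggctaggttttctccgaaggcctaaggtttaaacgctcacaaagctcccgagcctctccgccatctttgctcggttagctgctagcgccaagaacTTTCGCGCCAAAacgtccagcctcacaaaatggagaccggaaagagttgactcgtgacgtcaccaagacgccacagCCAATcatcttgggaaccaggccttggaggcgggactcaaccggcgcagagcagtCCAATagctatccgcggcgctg

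In the *Cdk1* promoter the search marked 3 CCAAT boxes, 2 CHR elements and 1 E2F site, and the CHR nearest the start began 15 bases before it. *Mki67* held 3 CCAAT boxes and 2 CHR elements, with no E2F match. *Kif23* held 1 CCAAT box in the printed stretch, and its CHR began 2 bases past the start. *Mcm6* held 3 E2F matches, of which a pair overlap on opposite strands and run together in the print, and 2 CCAAT boxes. *Mcm5* held 2 overlapping E2F matches and 2 CCAAT boxes, and neither licensing gene held a CHR element.

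Over windows from 250 bases before to 50 bases after the start, 40 of the 47 members had an entry, with 44 windows. A CHR element, with TTCGAA counted as its variant, lay in 24 of 28 windows of G2/M members (85.7%, 95% Wilson interval 68.5 to 94.3) and in 3 of 16 windows of S members (18.8%, 6.59 to 43.0), beside 19.2% of all 32851 windows. In 21 of those 24 G2/M windows it began within 50 bases of the start. CCAAT boxes lay in 85.7% of G2/M and 75.0% of S windows, beside 37.4% of all windows. E2F sites went the other way, with 7 of 16 S windows (43.8%, 23.1 to 66.8) and 1 of 28 G2/M windows (3.57%, 0.633 to 17.7), that of *Cdk1*, beside 2.37% of all. With the short core GGCGC in place of the 8-base sites, the shares were 81.2% and 64.3%, beside 36.9% of all windows, so the contrast between the phases rests on the full sites. Of the 4 members with a pair of windows, those of *Bub3* and *Prc1* overlap, and a match is a run of letters and not a measured site.

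**Figure D1:**
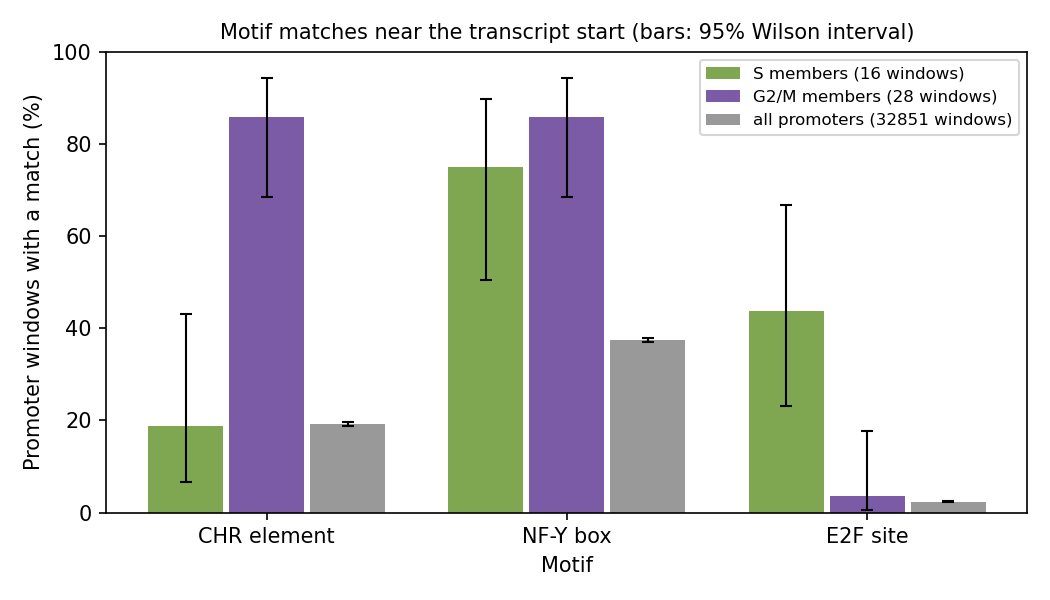
Share of promoter windows (percent, vertical axis) with a CHR element, an NF-Y (CCAAT) box or an E2F site, for S members, G2/M members and all promoters, with bars for the 95% Wilson interval. CHR matches stand at 85.7% of G2/M windows and E2F matches at 43.8% of S windows, against 19.2% and 2.37% of all windows.

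Library totals ran from 20957384 to 26144478 counts in CD8+ T cells and from 32848432 to 38573550 in NK cells, and 3 counts were set as the floor that a detected gene must pass in a library. Levels are counts per 1000000 counts (CPM) after TMM scaling of library sizes, and a level per kilobase of exon is used where the level of a gene is set against that of other genes. Sums over genes, shares of those sums and the choice of genes by mean CPM are not scaled by exon length, so longer genes weigh more in them. The 7 CD8+ T cell markers summed to 8330 to 9550 CPM in CD8+ T libraries and 275 to 469 CPM in NK libraries, and the 7 NK markers to 3140 to 4910 CPM and 61500 to 77500 CPM. The NK marker *Nkg7* made nearly all of that sum in CD8+ T libraries 1 to 3, at 3570, 4860 and 3070 CPM. *Ncr1*, a receptor of NK cells, had 0 counts in every CD8+ T library, and *Cd8b1*, the CD8 beta chain, 0 in every NK library. B cell markers had their highest sum in CD8+ T library 1 (338 CPM, beside 169 and 32.6 CPM in CD8+ T libraries 2 and 3 and 0.435 to 53.4 CPM in NK cells). Of the 8, 6 were above 3 counts in CD8+ T library 1, 5 in library 2 and 1 in library 3. The marker *Cd79b* was at 199, 163 and 32.5 CPM in CD8+ T libraries 1 to 3. *Ms4a1*, a B cell surface protein, had 405, 6 and 0 counts in them, and *Pax5*, a B lineage transcription factor, had 0 in all 3. *Tyk2* itself still had 105, 919 and 554 counts in CD8+ T libraries 1 to 3 and 3207 to 4245 in NK cells. Counts per gene do not show which exons they came from, so this does not check the knockout.

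Of the 47 members, 18 were above 3 counts in all 3 CD8+ T libraries and 35 in all 3 NK libraries. At the other end, 14 members did not pass 3 counts in any CD8+ T library, 12 of them G2/M genes, and 6 had 0 counts in all of them (*Cdc6*, *Ttk*, *Bub1*, *Bub1b*, *Tpx2* and *Prc1*). In NK cells 2 members did not pass 3 counts in any library, *Kif2c*, a microtubule-depolymerising kinesin, and *Bub1b*, a checkpoint kinase. By library, 27, 28 and 21 members were detected in CD8+ T libraries 1 to 3 and 41, 37 and 44 in NK libraries 1 to 3, so that each NK library held more of them than any CD8+ T library. By a looser mark, any count rather than more than 3, the same order held over all genes. Of these, 12893 to 14042 had a count in CD8+ T libraries and 17224 to 17373 in NK libraries. Since the marks differ, the size of the gap cannot be set against that of the members. The NK libraries were deeper. Thinned to the smallest CD8+ T total, the number detected in all 3 NK libraries was 31. In bulk RNA, fewer cells that express a gene and less RNA per cell cannot be told apart.

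Summed levels ran the other way from detection. The S members summed to 762, 558 and 629 CPM in CD8+ T libraries 1 to 3 and to 415, 597 and 498 CPM in NK libraries 1 to 3, and these ranges overlap. The G2/M members summed to 1450, 878 and 962 CPM in CD8+ T cells and to 631, 624 and 652 CPM in NK cells, so every CD8+ T library was above every NK library. *Smc4* and *Bub3* made 62.8% to 74.2% of the G2/M sum of CD8+ T libraries and 39.2% to 56.7% of that of NK libraries. Without them the other 29 G2/M members summed to 392, 327 and 248 CPM in CD8+ T cells and to 273, 284 and 396 CPM in NK cells, and the ranges overlap.

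**Figure D2:**
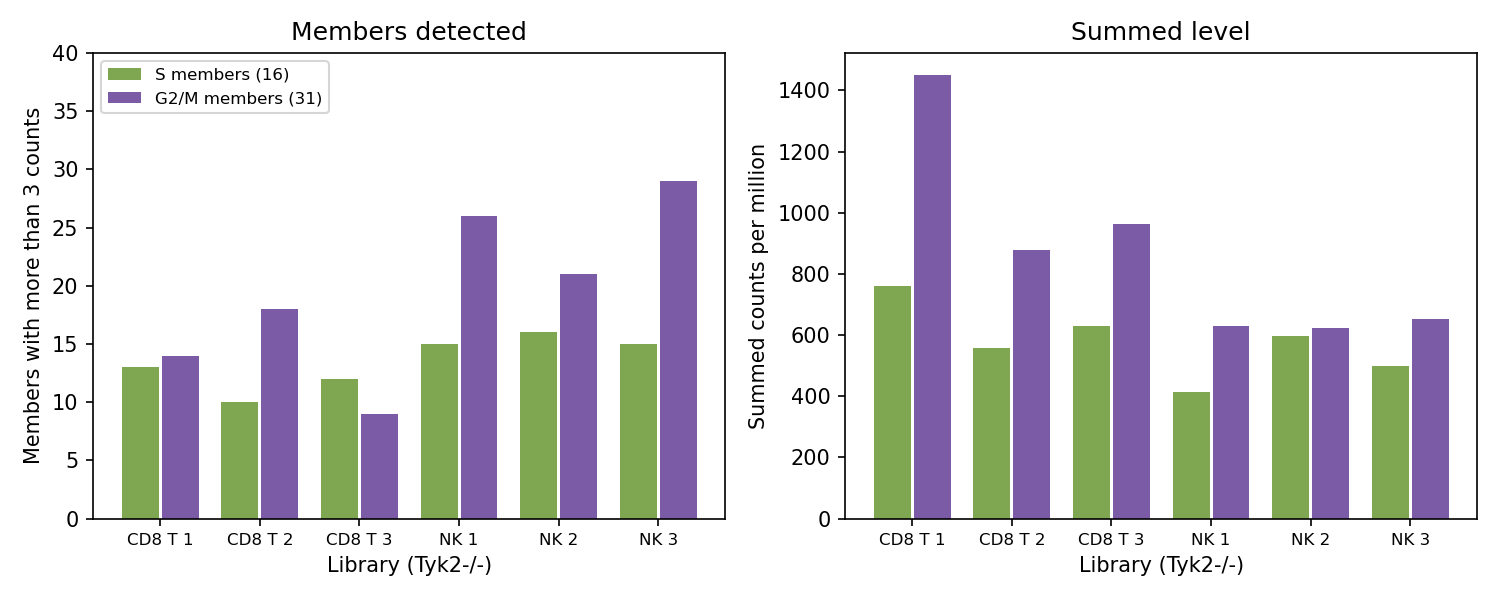
Number of members with more than 3 counts (left) and summed CPM (right) in each library, for the 16 S and 31 G2/M members. NK libraries detected 37 to 44 members and CD8+ T libraries 21 to 28, whereas the summed G2/M level was 878 to 1450 CPM in CD8+ T cells and 624 to 652 CPM in NK cells.

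Of the members, 44 had a mean normalised count of at least 10 and were tested between NK and CD8+ T cells (edgeR quasi-likelihood test, Benjamini-Hochberg over all genes tested). *Ttk*, *Bub1b* and *Kif2c* were not tested. At an adjusted p below 0.05, 4 members were called (9.09%), against 1600 of 14062 genes (11.4%), so members were called about as often as any gene. *Cdk1* and *Mki67* were higher in NK cells, where 6.24% of all genes were called, and *Smc4* and *Kif23* were higher in CD8+ T cells, where 5.14% were. All 4 are G2/M genes (4 of 28 tested, 14.3%), and none of the 16 S genes was called. *Cdk1* and *Mki67* passed the filter through NK cells alone, with at most 3 counts in any CD8+ T library. Only a call towards NK cells was open to them, so these calls and the G2/M share describe the members and do not test them. Without any one NK library the number of members called was 1 or 2, and that of all genes 476 to 485. DESeq2 gave 38 members an adjusted p and called 12 of them (31.6%), against 29.6% of all genes with one. Of the S members 4 had an unadjusted edgeR p below 0.05, *Mcm6*, *Pcna* and *Rrm1* (0.0092, 0.006 and 0.049) with higher levels in CD8+ T cells and *E2f1* (0.025) with higher levels in NK cells, and DESeq2 called 3 S members.

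For 18 of 44 members NK and CD8+ T libraries had ranges apart, against 41.6% of all genes tested. NK libraries were all above CD8+ T libraries for 12 (27.3%) and all below for 6 (13.6%), beside 25.5% and 16.1% of all genes, so the split over all members was close to that of all genes. Among S members the split was 3 and 3 (18.8% each), and among G2/M members 9 and 3 (32.1% and 10.7%). The median log2 fold change (NK over CD8+ T) was 0.9 over the members tested, -0.3 over S members and 1.9 over G2/M members, beside 0.1 over all genes. Several G2/M members, such as *Prc1*, *Tpx2* and *Bub1*, were at 0 in CD8+ T cells and passed the filter through NK cells alone. The G2/M median includes them, and *Prc1* and *Tpx2* are among the 9. Of the 9, *Cdk1*, *Mki67*, *Ccna2* and *Ube2c* had at most 3 counts in any CD8+ T library and passed through NK cells too. *E2f1*, an S member, did so as well. The medians and the splits are thus descriptions and no test of the members. Fitted fold changes of members at 0 in a cell type depend on the prior count. With members of 3 counts or fewer over a cell type set at their bound, the medians were the same. A median does not respond, however, to how far above it a value lies.

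**Figure D3:**
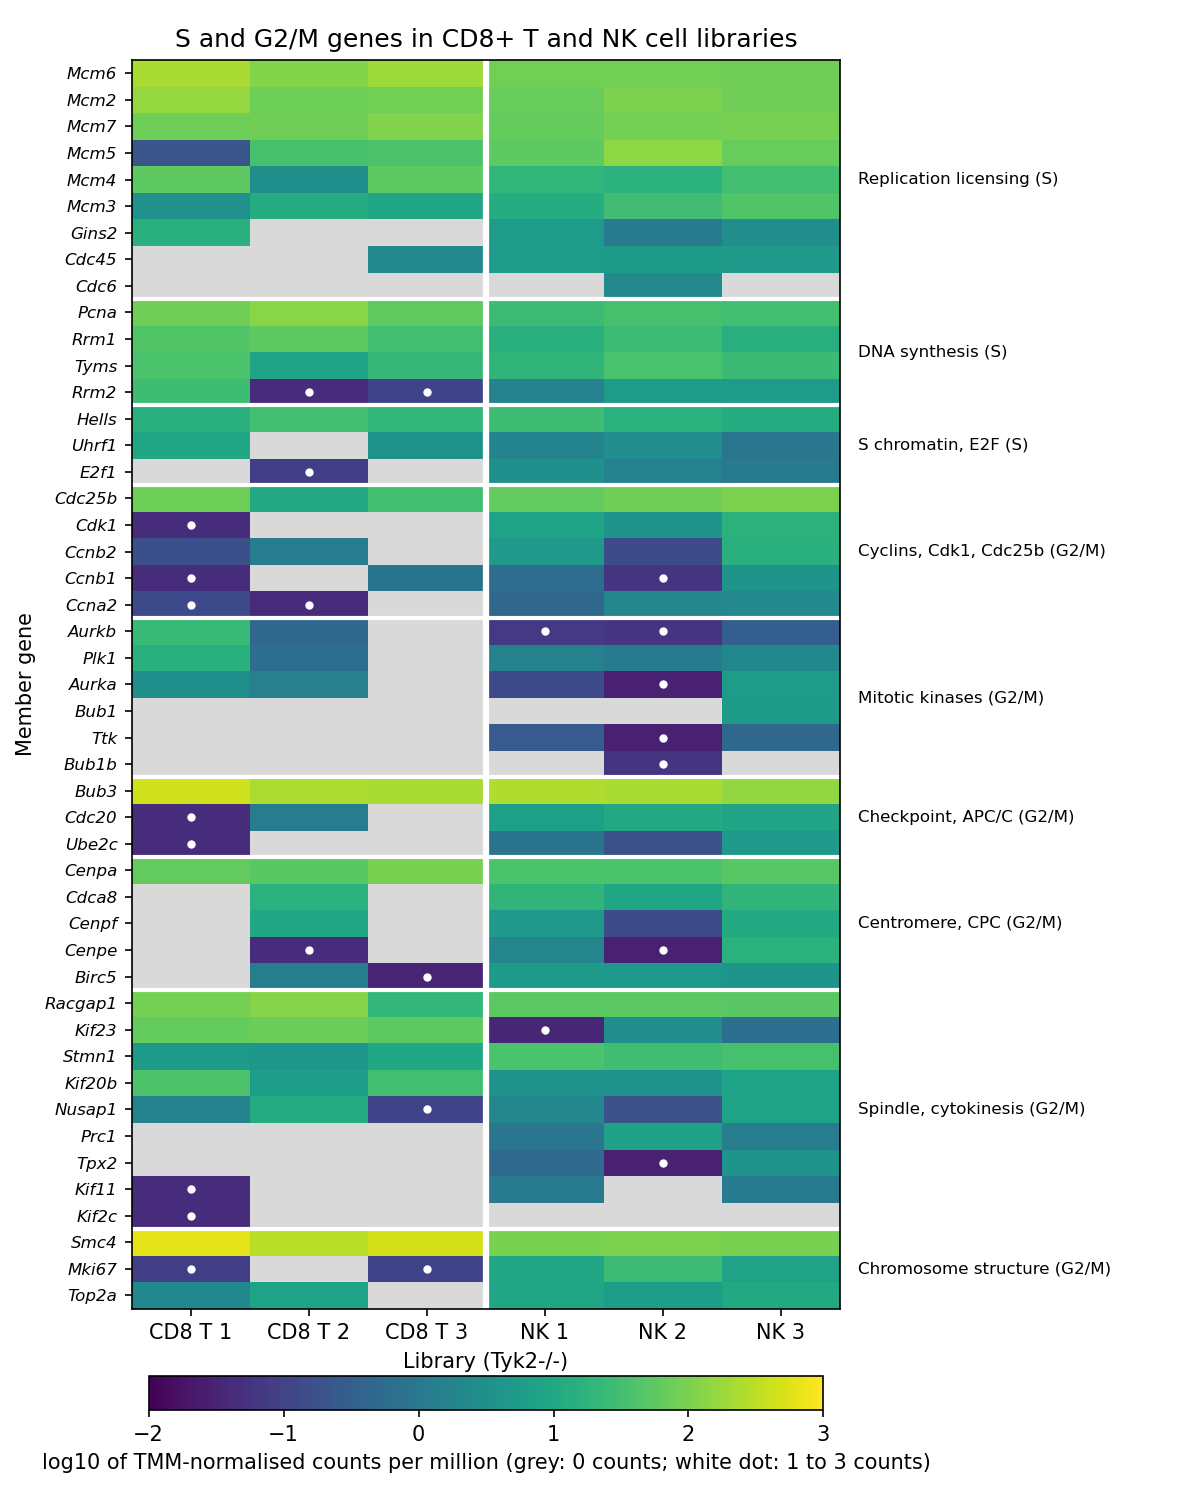
Level of each of the 47 members (rows, grouped by role) in the 6 libraries (columns), as log10 of TMM-normalised CPM, with grey for 0 counts and a white dot for 1 to 3 counts. Grey and dotted cells gather in the G2/M rows of CD8+ T libraries, where 12 G2/M members did not pass 3 counts in any library.

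Of the replication licensing genes, the MCM subunits were above 3 counts in all 6 libraries. *Mcm6*, a subunit of the MCM helicase, was at 230, 119 and 183 CPM in CD8+ T libraries 1 to 3 and at 87.1, 86.0 and 81.5 CPM in NK libraries 1 to 3. All CD8+ T libraries were above the NK libraries, with means of 177 ± 55.3 and 84.9 ± 2.95 CPM (SD, n = 3). The log2 fold change was -1.06 (SE 0.29), and its adjusted p of 0.063 missed the threshold. *Mcm2*, another subunit, was at 162, 79.2 and 86.6 CPM in CD8+ T cells and 68.7, 105 and 80.7 CPM in NK cells, and *Mcm7* was at 78.5, 82.8 and 114 CPM and 65.0, 89.2 and 94.7 CPM. Both overlapped between the cell types (log2 fold changes -0.37 and -0.15, SE 0.37 and 0.30). Exons of *Cops6* and *Ap4m1* on the other strand cover 13.0% of *Mcm7*, and the strand setting of the counting is not known here.

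In CD8+ T cells the other MCM subunits were lower per kilobase and more uneven. Per kilobase of exon, *Mcm6*, *Mcm2* and *Mcm7* stood at 40.5, 32.4 and 31.0 CPM in CD8+ T cells, and *Mcm3*, *Mcm4* and *Mcm5* at 2.74 to 11.0 CPM. In NK cells that order did not hold, with *Mcm5* at 25.3 CPM per kilobase beside 25.2, 28.0 and 19.4 for *Mcm2*, *Mcm7* and *Mcm6*. *Mcm3*, *Mcm4* and *Mcm5* ranged in CD8+ T cells from 5 counts of *Mcm5* in library 1, beside 827 and 1192 in the others, to 1743 counts of *Mcm4* in library 3, beside 73 in library 2. *Gins2*, a subunit of the GINS complex, was at 14.9, 0 and 0 CPM in CD8+ T cells and at 5.92, 1.19 and 2.95 CPM in NK cells. Its 351 counts in CD8+ T library 1 came with the B cell markers of that library, whose part in them was not tested, and 70.7% of its exons lie over *Gse1* on the other strand. Without that library, which held all of its CD8+ T counts, its log2 fold change went from -0.56 to 9.67 (adjusted p = 0.073). *Cdc45*, the helicase cofactor, and *Cdc6*, the MCM loader, stayed between 0 and 180 counts in every library.

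Among genes of DNA synthesis, *Pcna*, the sliding clamp of the polymerases, was at 81.9, 130 and 60.5 CPM in CD8+ T libraries 1 to 3 and at 26.6, 35.7 and 30.6 CPM in NK libraries 1 to 3. The libraries did not overlap, the mean was 2.93-fold higher in CD8+ T cells (90.7 ± 35.5 against 31.0 ± 4.60 CPM, SD, n = 3), and the adjusted p of the log2 fold change of -1.55 (SE 0.39) was 0.052. It passed with NK libraries thinned to the smallest CD8+ T total (0.046), without CD8+ T library 3 (0.03) and in DESeq2 (0.003). It did not pass with RLE in place of TMM (0.055), without a filter (0.075) or without CD8+ T library 1 or 2 (0.07 and 0.083). Without any one NK library it was 0.15 to 0.16. *Rrm1*, the large subunit of ribonucleotide reductase, was at 43.6, 56.4 and 30.9 CPM in CD8+ T cells and 15.0, 26.8 and 14.1 CPM in NK cells, again with no overlap (log2 fold change -1.23, SE 0.51, adjusted p = 0.16). Its partner *Rrm2*, the small subunit that is made in S phase, did not follow it. *Rrm2* had 659 counts in CD8+ T library 1 but 1 and 3 counts in the others, and 48 to 188 counts in NK cells, and the part of the B cell RNA of that library in its value was not tested. *Tyms*, thymidylate synthase, was at 37.9, 8.23 and 21.3 CPM in CD8+ T cells and at 18.4, 37.1 and 25.7 CPM in NK cells, with overlap.

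*Hells*, a chromatin remodeller, was at 14.8, 31.2 and 19.4 CPM in CD8+ T cells and at 27.4, 15.6 and 12.4 CPM in NK cells, and the libraries overlapped. *Uhrf1*, which guides maintenance of DNA methylation behind the replication fork, was at 9.69, 0 and 3.48 CPM in CD8+ T cells and at 1.82, 2.81 and 0.902 CPM in NK cells. *E2f1*, the transcription factor that activates S phase genes, had 0, 2 and 0 counts in CD8+ T libraries and 98, 54 and 35 in NK libraries (3.30, 1.56 and 1.09 CPM). The NK over CD8+ T ratio of its summed counts, scaled by depth, was 74.8 (95% counting interval 20.4 to 622), and the fitted log2 fold change was 5.96 (SE 2.07, adjusted p = 0.11). A counting interval, here and below, leaves out the spread between libraries, which the fitted change takes in. S members thus did not all share one order, since *Pcna*, *Rrm1* and *Mcm6* had every CD8+ T library on top and *E2f1*, *Mcm5* and *Cdc45* every NK library.

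Of the genes that drive entry into mitosis, *Cdk1* (GRCm38, chr10:69335146-69352938) had 1, 0 and 0 counts in CD8+ T libraries 1 to 3 and 233, 132 and 532 counts in NK libraries 1 to 3, or 7.84, 3.83 and 16.5 CPM. No CD8+ T library passed 3 counts and all NK libraries did. The NK over CD8+ T ratio of summed counts, scaled by depth, was 717 (95% counting interval 128 to 28400), and the log2 fold change was 9.04 (SE 1.94, adjusted p = 0.033). Without NK library 1, 2 or 3 the adjusted p was 0.13, 0.099 or 0.14, so the call needed all of them. The level in NK cells was nonetheless low, at 2.11 ± 1.46 CPM per kilobase (SD, n = 3), percentile 38.4 of genes tested.

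The cyclins that CDK1 needs were detected in NK cells too but unevenly. *Ccnb2*, a B-type cyclin, was at 0.169, 1.23 and 0 CPM in CD8+ T cells and at 4.75, 0.145 and 15.1 CPM in NK cells, and the libraries overlapped (log2 fold change 3.83, SE 2.34, adjusted p = 0.31). *Ccna2*, the A-type cyclin, had 3, 1 and 0 counts in CD8+ T libraries and 13, 71 and 73 in NK libraries, with ranges apart (adjusted p = 0.15). *Ccnb1*, with 1, 0 and 26 counts and 18, 2 and 122 counts, overlapped, and neither was called. *Cdc25b*, the phosphatase that activates CDK1, was present throughout, at 78.7, 10.6 and 30.3 CPM in CD8+ T cells and at 61.6, 83.9 and 104 CPM in NK cells (log2 fold change 1.06, SE 0.71, adjusted p = 0.35). All 5 genes of this role had a log2 fold change above 0 and were highest in NK library 3.

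Mitotic kinases were scarce in both cell types, with summed levels of 0 to 42.2 CPM in CD8+ T libraries and 1.39 to 14.0 CPM in NK libraries, and none was called. *Aurkb*, the kinase of the chromosomal passenger complex (CPC), was at 24.3, 0.467 and 0 CPM in CD8+ T libraries 1 to 3 and at 0.0673, 0.0580 and 0.311 CPM in NK cells. *Plk1*, the Polo kinase, was at 14.8, 0.636 and 0 CPM in CD8+ T cells and at 1.55, 1.22 and 2.18 CPM in NK cells. The high value of both was in CD8+ T library 1, which had the highest sum of B cell markers (338 CPM, beside 169 CPM in library 2). The part of B cell RNA in these values was not tested. Without CD8+ T library 1 the log2 fold change of *Plk1* turned from -1.64 to 2.35 (adjusted p = 0.49).

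*Aurka*, the spindle pole kinase, was at 3.09, 1.48 and 0 CPM in CD8+ T cells and at 0.135, 0.0290 and 5.75 CPM in NK cells. *Bub1*, a checkpoint kinase, had 169 counts in NK library 3 and 0 in the other 5 libraries. Its NK mean was at least 14.8-fold higher than a floor of 3 counts per library in CD8+ T cells, a value that 1 library carried. Among the NK libraries, all 5 mitotic kinases with counts above 3 there were highest in library 3, although *Aurkb* and *Plk1* were higher still in CD8+ T library 1.

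*Bub3*, a checkpoint protein that also binds other complexes, was at 428, 246 and 228 CPM in CD8+ T cells and at 259, 235 and 156 CPM in NK cells. With 67.1 and 48.4 CPM per kilobase it stood at percentiles 90.9 and 88.5 of genes tested, while its kinase partners *Bub1* and *Bub1b* had 0 counts in CD8+ T cells. *Cdc20*, the activator of the APC/C, was at 0.0423, 1.27 and 0 CPM in CD8+ T cells and at 6.73, 10.3 and 8.21 CPM in NK cells, with no overlap and similar values in all NK libraries. Its log2 fold change of 4.26 (SE 2.07) had an adjusted p of 0.21, and of 0.039 without CD8+ T library 2, which held 30 of its 31 counts in CD8+ T cells. The lower p comes with leaving out nearly all of those counts, so it is no evidence of a difference. *Ube2c*, the ubiquitin-conjugating enzyme of the APC/C, had 1, 0 and 0 counts in CD8+ T libraries and 25, 6 and 159 in NK libraries (ratio 152, 95% counting interval 26.9 to 6030, adjusted p of the fitted change 0.11), and 22.8% of its exons lie over *Tnnc2* on the other strand.

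At the centromere, *Cenpa*, the histone H3 variant that marks it, was at 62.3, 51.5 and 98.9 CPM in CD8+ T cells and at 38.7, 39.1 and 49.2 CPM in NK cells. All CD8+ T libraries were above the NK libraries (log2 fold change -0.74, SE 0.37, adjusted p = 0.22). *Cdca8*, the CPC subunit borealin, was at 0, 15.7 and 0 CPM in CD8+ T cells and at 18.8, 8.58 and 18.3 CPM in NK cells. *Cenpf*, a kinetochore protein, was at 0, 9.80 and 0 CPM and at 5.02, 0.145 and 11.3 CPM. In CD8+ T cells both had counts in library 2 alone, and without that library *Cdca8* reached a log2 fold change of 11.85 (adjusted p = 0.022). That fit leaves out the only CD8+ T library with counts of *Cdca8*, so its p is no evidence of a difference. *Birc5*, the CPC subunit survivin, had 0, 29 and 1 counts in CD8+ T libraries and 160, 157 and 127 in NK libraries, all above and even among themselves (log2 fold change 3.45, SE 2.07, adjusted p = 0.3). *Cenpe*, a kinetochore motor, had 0, 1 and 0 counts and 57, 1 and 495 counts, and was not called.

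Among genes of spindle and cytokinesis, *Kif23* (GRCm38, chr9:61915905-61946774), the kinesin of the centralspindlin complex that bundles microtubules between separating chromosomes, was at 66.1, 76.0 and 57.9 CPM in CD8+ T libraries 1 to 3. In NK libraries 1 to 3 it was at 0.0337, 2.90 and 0.684 CPM. The mean was 55.3-fold higher in CD8+ T cells (66.7 ± 9.03 against 1.21 ± 1.50 CPM, SD, n = 3), with a log2 fold change of -5.78 (SE 1.41, adjusted p = 0.047). The call was lost without CD8+ T library 1, 2 or 3 (adjusted p = 0.072, 0.074 and 0.062) and without NK library 2 or 3 (0.062 and 0.15), always with the same direction.

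*Racgap1*, the partner of *Kif23* in centralspindlin, was at 92.1, 126 and 20.3 CPM in CD8+ T cells and at 53.9, 54.3 and 52.2 CPM in NK cells. It was even across the NK libraries, where *Kif23* had 1, 100 and 22 counts. *Stmn1*, the microtubule destabiliser stathmin, was at 5.38, 4.24 and 9.34 CPM in CD8+ T cells and at 38.2, 28.8 and 35.2 CPM in NK cells. All NK libraries were above, the mean was 5.39-fold higher, and the log2 fold change of 2.43 (SE 0.62) had an adjusted p of 0.053. It was 0.048 with RLE in place of TMM, 0.033 without CD8+ T library 3 and 5.1e-05 in DESeq2. It was 0.093 without a filter, 0.056 with NK libraries thinned and 0.065 or 0.061 without CD8+ T library 1 or 2. Without any one NK library it was 0.15 to 0.18. *Prc1* and *Tpx2*, a spindle midzone bundler and an Aurora A activator, had 0 counts in every CD8+ T library. *Prc1* had 27, 248 and 41 counts in NK cells, a mean at least 26.4-fold above a floor of 3 counts per library, with an adjusted p of 0.072, and 21.8% of its exons lie over *Rccd1* on the other strand. *Tpx2* had 15, 1 and 123 counts (at least 12.3-fold). *Kif20b* was at 40.4, 6.49 and 30.6 CPM in CD8+ T cells and at 3.67, 3.68 and 7.81 CPM in NK cells, with overlap. Its log2 fold change was -2.35 (SE 0.91, adjusted p = 0.14). *Nusap1* had 40, 285 and 3 counts in CD8+ T libraries and 60, 6 and 261 in NK libraries. *Kif11* had 0 to 37 counts in every library, and *Tpx2*, *Kif20b*, *Nusap1* and *Kif11* were not called.

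*Smc4* (GRCm38, chr3:69004738-69034623), the ATPase core of condensin, had the highest level per kilobase of all members in CD8+ T cells, 109 ± 37.3 CPM (SD, n = 3), percentile 94.2 of genes tested. It was at 626, 304 and 485 CPM in CD8+ T libraries 1 to 3 and at 98.8, 105 and 99.3 CPM in NK libraries 1 to 3. The mean was 4.67-fold higher in CD8+ T cells (472 ± 161 against 101 ± 3.62 CPM, SD, n = 3), with a log2 fold change of -2.22 (SE 0.29, adjusted p = 0.0065). The call held under all 10 alternatives, with log2 fold changes from -2.43 to -1.95.

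*Mki67* (GRCm38, chr7:135689784-135716361), which codes for the proliferation marker Ki-67, had 2, 0 and 3 counts in CD8+ T libraries 1 to 3 and 286, 905 and 248 counts in NK libraries 1 to 3, or 9.63, 26.2 and 7.71 CPM. None of the CD8+ T libraries passed 3 counts. The NK over CD8+ T ratio of summed counts, scaled by depth, was 230 (95% counting interval 98.4 to 710), and the log2 fold change was 7.77 (SE 1.65, adjusted p = 0.032). Without NK library 1, 2 or 3 the adjusted p was 0.12, 0.15 or 0.11. *Top2a*, the topoisomerase that untangles chromatids, was at 2.20, 7.89 and 0 CPM in CD8+ T cells and at 8.58, 6.29 and 11.0 CPM in NK cells, and was not called (log2 fold change 1.36, SE 1.84, adjusted p = 0.67).

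**Figure D4:**
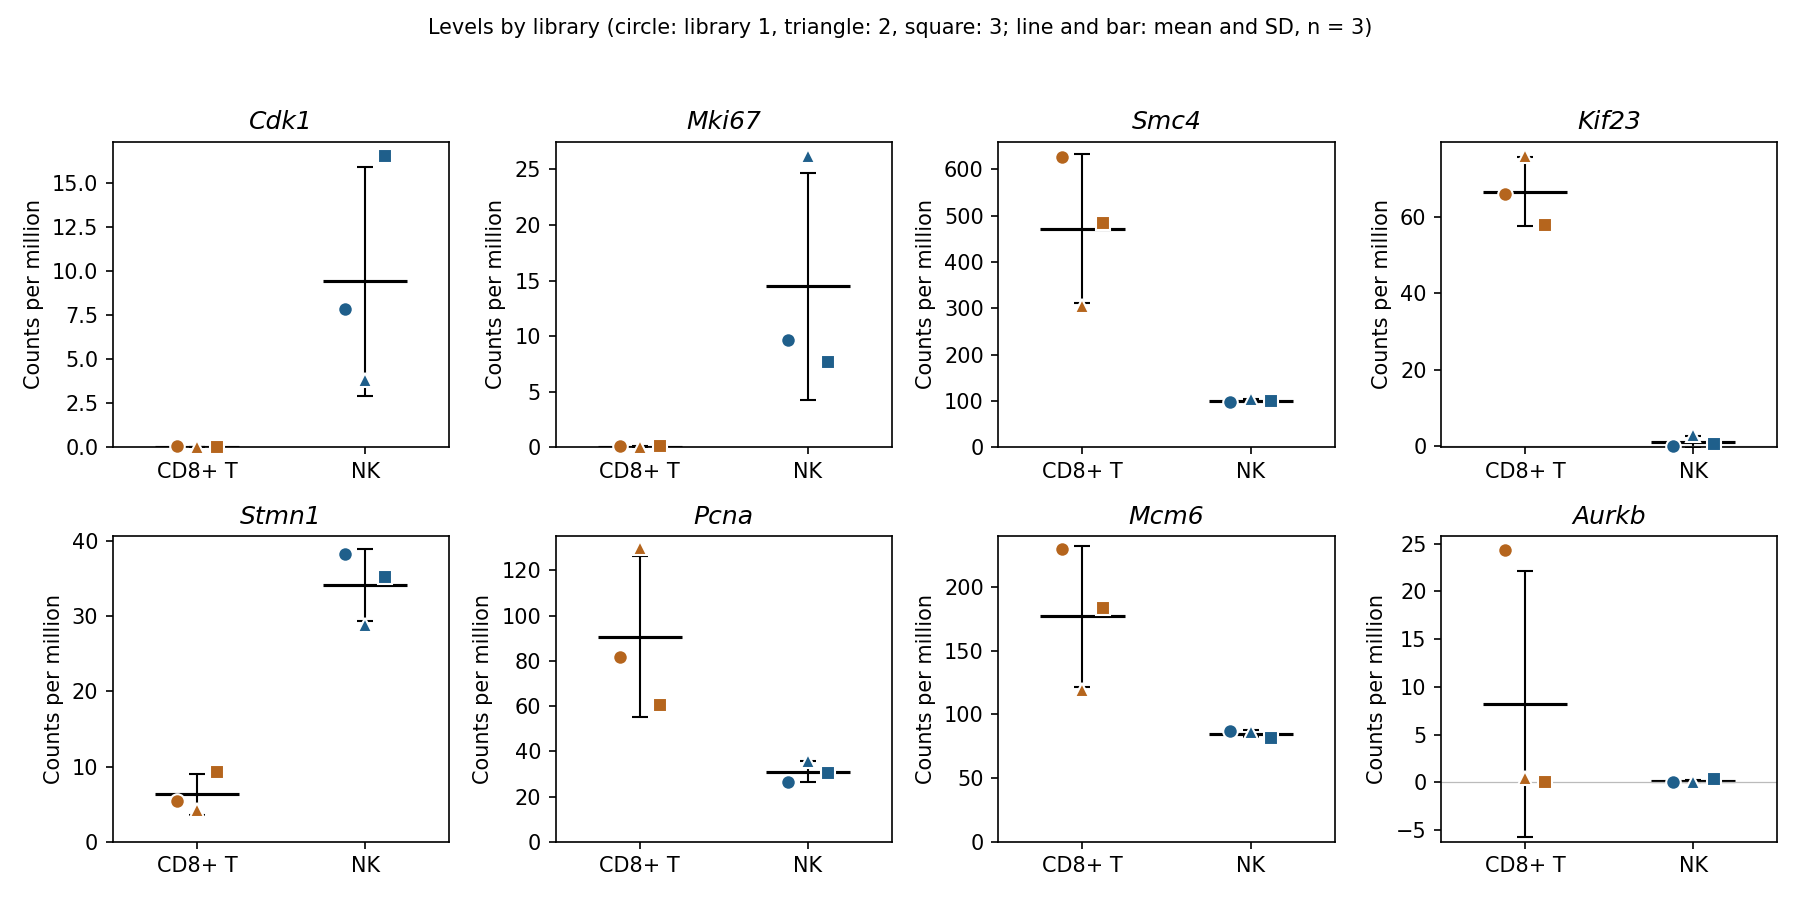
Level (CPM) of 8 members in each library (circle, triangle and square for libraries 1, 2 and 3), with the mean and SD of 3 libraries. *Cdk1*, *Mki67* and *Stmn1* have all NK libraries on top, *Smc4*, *Kif23*, *Pcna* and *Mcm6* all CD8+ T libraries, and *Aurkb* rests on CD8+ T library 1 (24.3 CPM).

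**Figure D5:**
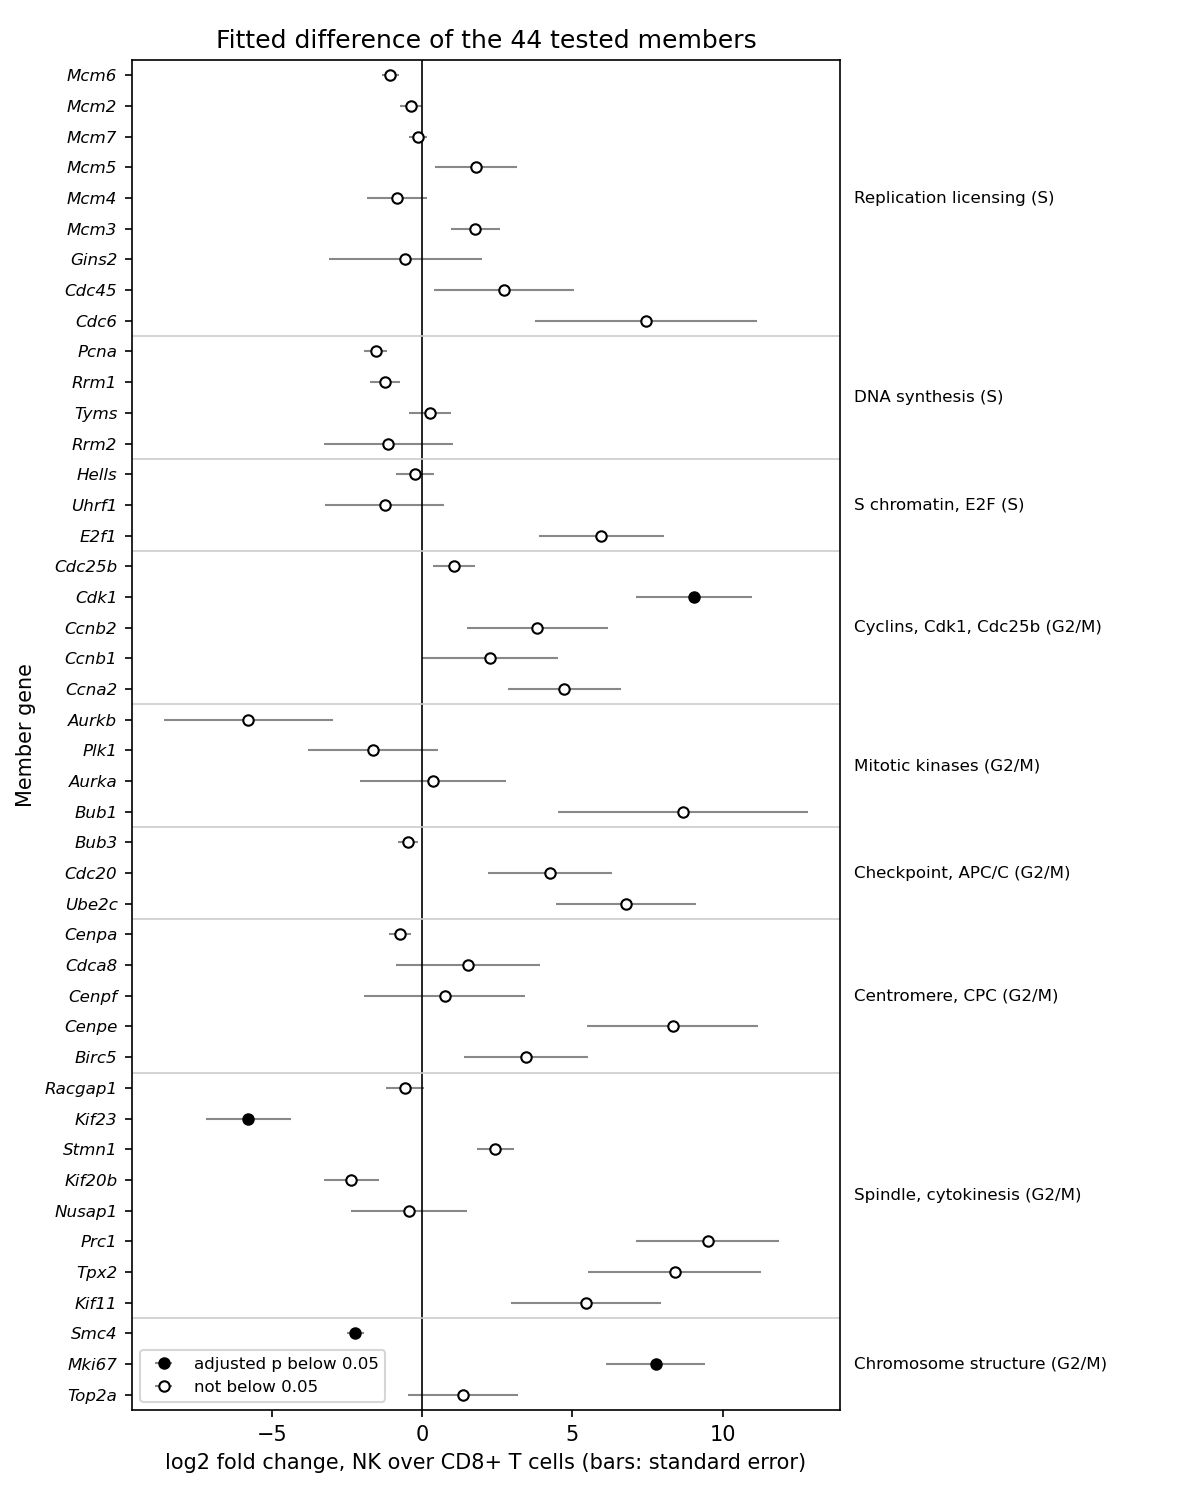
Log2 fold change (NK over CD8+ T cells, horizontal axis) with its standard error for the 44 tested members, grouped by role, filled where the adjusted p was below 0.05. *Cdk1* (9.04) and *Mki67* (7.77) are filled to the right, *Smc4* (-2.22) and *Kif23* (-5.78) to the left, and the 17 members above 3 counts in all 6 libraries have standard errors of 0.29 to 1.37, against 1.41 or more for the others.

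The members varied more between CD8+ T libraries than between NK libraries. All-or-none genes are those with 0 counts in 1 library of a group and 100 or more in another, with counts scaled to the mean total. In CD8+ T cells 8 of the 28 members that reached 100 counts were all-or-none (28.6%), beside 19.2% of all genes that reached it. These were *Gins2*, *Uhrf1*, *Aurka*, *Aurkb*, *Plk1*, *Cdca8*, *Cenpf* and *Top2a*. In NK cells 1 of 34 was, *Bub1* (2.94%), beside 3.46% of all genes. Without any one CD8+ T library 4 members were all-or-none there, and with NK libraries thinned to the smallest CD8+ T total 4 were in NK cells. The common biological coefficient of variation over all genes was 1.40 for CD8+ T libraries and 0.847 for NK libraries, so the spread of the members went with that of all genes.

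Among the 17 members above 3 counts in all 6 libraries (10 S and 7 G2/M), the highest library was a median of 2.15 times the lowest in CD8+ T cells, and 1.65 times for NK cells, beside 2.60 and 1.55 times over 7852 genes. Of the 31 G2/M members, 18 were highest in NK library 3, 7 in NK library 2 and 5 in NK library 1 (*Kif2c* had no counts). Of the 16 S members, 4 were highest in NK library 3, 7 in library 2 and 5 in library 1. In CD8+ T cells 18 of all members were highest in library 1, 15 in library 2 and 8 in library 3. These tallies include members at or below the floor, such as *Cdk1* with 1 count in CD8+ T library 1. The same tally over all genes was not made, so they cannot be read as particular to the members.

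Other genes of the cell cycle were read from lists that do not share members with the 47. Of 46 other replication genes 44 were tested and 2 called, *Dut*, a dUTPase that keeps uracil out of DNA, and *Orc4*, a subunit of the origin recognition complex. *Dut* was at 43.8, 27.6 and 27.6 CPM in CD8+ T cells and at 94.2, 95.8 and 82.3 CPM in NK cells (log2 fold change 1.46, SE 0.34, adjusted p = 0.04), and *Orc4* at 80.5, 105 and 57.4 CPM and 17.0, 28.3 and 21.1 CPM (-1.87, SE 0.41, adjusted p = 0.033). Of 43 other G2/M genes 38 were tested and 1 called, the mitotic kinase gene *Pbk*, with 0 counts in every CD8+ T library and 169, 167 and 91 in NK cells (at least 37.7-fold above a floor of 3 counts per library, adjusted p = 0.046). In that list 17 genes did not pass 3 counts in any CD8+ T library and 2 in any NK library. The median log2 fold changes were 0.5 and 1.9, and they too include genes at 0 in CD8+ T cells that passed the filter through NK cells. The called *Pbk* is one of these genes. The shares called, 4.55% and 2.63%, were below that of all genes. Without any one NK library neither list had a call.

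Regulators of G1 and inhibitors had 5 calls among 33 genes tested of 36 (15.2%). That share stands beside 11.4% of all genes tested. Of the 3 D cyclins, which open G1, *Ccnd3* and *Ccnd2* were higher in NK cells, and *Ccnd1* had 0, 81 and 0 counts in CD8+ T libraries and 58, 16 and 1 in NK libraries (log2 fold change -0.49, SE 2.60, adjusted p = 0.93). *Ccnd3* was at 173, 191 and 220 CPM in CD8+ T cells and at 591, 630 and 547 CPM in NK cells (log2 fold change 1.6, SE 0.17, adjusted p = 0.0029), and *Ccnd2* at 939, 1050 and 1380 CPM and 1980, 1760 and 1890 CPM (0.74, SE 0.18, adjusted p = 0.047). Their kinases stood in opposite order. *Cdk6* was at 349, 307 and 375 CPM in CD8+ T cells and 48.9, 78.6 and 60.6 CPM in NK cells (-2.45, SE 0.25, adjusted p = 0.0024). *Cdk4* was at 97.5, 113 and 205 CPM in CD8+ T cells and 297, 345 and 361 CPM in NK cells, with ranges apart and an adjusted p that missed the threshold (1.27, SE 0.32, adjusted p = 0.052). *Wee1*, which inhibits CDK1, had 1, 0 and 0 counts in CD8+ T libraries and 393, 825 and 33 in NK libraries (adjusted p = 0.041). It passed the filter through NK cells alone. *Rbl2*, the pocket protein of DREAM in resting cells, was at 24.2, 14.5 and 6.33 CPM in CD8+ T cells and at 77.7, 109 and 56.0 CPM in NK cells (2.43, SE 0.60, adjusted p = 0.049). Without any one NK library, or without CD8+ T library 2, 2 genes of this list were called.

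Of 9 genes tied to lymphocyte quiescence 2 were called (22.2%, beside 11.4% of all genes), and both were higher in CD8+ T cells. *Btg1*, an antiproliferative factor, was at 345, 488 and 413 CPM in CD8+ T cells and at 73.4, 82.3 and 68.1 CPM in NK cells (log2 fold change -2.48, SE 0.22, adjusted p = 0.0012). *Foxo1*, a transcription factor that keeps naive T cells at rest, was at 159, 239 and 121 CPM and at 70.0, 38.0 and 36.0 CPM (-1.85, SE 0.40, adjusted p = 0.036). *Klf2*, a transcription factor of resting T cells, lay in the other direction without a call, at 129, 289 and 163 CPM in CD8+ T cells and at 449, 408 and 436 CPM in NK cells (1.15, SE 0.32, adjusted p = 0.064). *Btg2*, a relative of *Btg1*, also had all NK libraries above (169 to 241 CPM against 81.6 to 165 CPM, adjusted p = 0.28). All 9 were tested, with a median log2 fold change of -0.58, below 0 for 6 of them and above 0 for *Klf2*, *Btg2* and *Tsc1*. Without CD8+ T library 1 or any one NK library 1 of them was called.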

How the data were processed

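Counts of RNA-seq libraries were analysed, made from 500 pg of RNA by Smart-seq2 amplification and Nextera XT, and sequenced as 50 bp single-end reads. The authors trimmed reads (Trimmomatic 0.32), aligned them to mm10 (STAR 2.7.1) and deposited, without normalisation, raw counts per gene of reads that aligned once, over exons (R 3.2.3, versions from the submitters' processing notes). Multi-mapping reads were left out, which can lower the counts of genes that have close copies, and the strand setting is not given in the sources used here. Of 104 columns of counts 6 were used and 98 were not. Columns carry running numbers that differ from the samples' replicate numbers, so libraries are numbered 1 to 3 within a group. Of 54232 gene IDs 54079 had a symbol. In R 4.3.3, edgeR 4.0.16 was run with TMM, a minimum mean normalised count of 10, robust quasi-likelihood tests and Benjamini-Hochberg adjustment over 14062 genes. Standard errors are the absolute log2 fold change over the root of F. The fits were tested on simulated counts, with the pass mark set at a spread far below that of these libraries. That test therefore does not show what share of true changes is called here. Alternatives were RLE, DESeq2 1.42.0 (Wald test), no filter, NK libraries thinned to 20957384 counts, leaving out each library, a floor of 10 counts, 50 scaled counts for all-or-none genes, unscaled CPM and a short E2F core. Promoters were taken from RefSeq (GRCm38.p6), and lengths, positions and overlaps from the annotation of GRCm38. No molecular identifiers were counted, so floors and intervals cover counting error of reads only, and neither amplification nor the spread between libraries. Genes named are members called, the 3 of highest mean CPM in each role, all-or-none members, and called genes of the other lists, and further members named were chosen after their values were seen. Members and lists were chosen with earlier results of these data known.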

Additional observations from a re-analysis of the deposited data

How the results depend on the processing

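No paired analysis was possible because the libraries used carry no replicate numbers of the samples, the NK and CD8+ T samples share none, and the *WT* columns could not be tied to samples. For that reason the planned comparison of *Tyk2*-/- with *WT* CD8+ T cells, with and without a replicate block, was not run.

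With DESeq2, 12 members were called, 7 higher in NK and 5 higher in CD8+ T cells, with 8 other replication genes, 9 other G2/M genes, 12 G1 regulators and 3729 genes in all (2132 and 1597 by direction). Without a filter the same 3 lists had 1, 0 and 3 calls. Leaving out each library in turn gave 1 to 6 members called (0 to 4 higher in NK, 1 to 2 higher in CD8+ T cells), 0 to 5 other replication genes, 0 to 3 other G2/M genes, 2 to 5 G1 regulators, 1 to 2 quiescence genes and 476 to 1946 genes in all (236 to 1205 and 240 to 741 by direction). All-or-none members numbered 4 in CD8+ T cells without any one of its libraries, and 0 to 1 in NK cells, 2 there with a minimum of 50 counts and 4 after thinning. The mean summed level of G2/M members in NK cells, 636 CPM, was 563 CPM unscaled, 619 CPM after thinning and 619 to 656 CPM without 1 library. With the short core, E2F matches rose to 81.2% of S and 64.3% of G2/M windows.

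Log2 fold changes turned sign in 12 of the alternatives of 9 named members, none of them called, and each time on leaving out a library. The range over the 6 libraries left out was -0.55 to 0.04 for *Mcm2*, -0.25 to 0.04 for *Mcm7* (0.00 without NK library 1), -1.26 to 9.67 for *Gins2*, -0.11 to 0.89 for *Tyms* (-0.03 without NK library 2), -0.64 to 0.14 for *Hells*, -1.81 to 0.11 for *Uhrf1*, -4.15 to 1.40 for *Aurka* (-0.20 without CD8+ T library 3), -2.20 to 2.35 for *Plk1* and -0.34 to 10.38 for *Cenpf*. The other changes kept their direction, 252 on the same side of the threshold, 12 newly past it and 11 no longer past it. The cause was not tested in any of these cases. With 3 pools per cell type and a coefficient of variation of 1.40 in CD8+ T cells, members without a call cannot be read as equal between the cell types.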
